A study of Arabidopsis thaliana with 3 samples.

Results

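Class III peroxidases were examined in polyadenylated RNA from whole seedlings of wild-type Arabidopsis thaliana (Col-0). The set was the 60 genes of this family whose locus codes run from AT2G to AT5G, out of 37336 genes in the count table, and each of the 60 was found there by its code. Genes of the family on chromosome 1 were not analysed here. The 3 libraries, replicates 1, 2 and 3, formed 1 group of untreated seedlings aged 7 days, raised at 21 °C with 16 h of light and 8 h of dark on Murashige and Skoog agar (0.8%) with sucrose (1.5%). The series is titled for cohesin subunits and the monoubiquitination of histone H2A, and these wild-type seedlings are the whole of what was used. Whether the replicates are separate cultures is not in the labels, so p-values measure only the spread between these libraries, which may be technical. Membership goes by gene family, but the family was selected on count values of these same 3 libraries, in which peroxidase genes had been seen to differ between replicates. The differences between replicates given here are therefore a description and carry no test of their own.

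Class III peroxidases are secreted heme enzymes of plants that use hydrogen peroxide to oxidise phenolic compounds. In the cell wall they couple lignin monomers and cross-link proteins and polysaccharides, which stiffens the wall, and in another reaction cycle they release reactive oxygen, which can loosen it or act in defence. The family is large and arose in part by tandem duplication, and many members act in roots, among them those that lignify the Casparian strip, the barrier in the endodermal wall, and those of growing root hairs.

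By the RefSeq annotation of TAIR10.1, 13 of the 60 genes lay on chromosome 2, 10 on chromosome 3, 15 on chromosome 4 and 22 on chromosome 5. All 60 were annotated as protein-coding, with a median coding length of 993 bases (951 to 1215). A structure of 4 exons was found in 41 genes (68.3%), 3 exons in 13, and no intron in 4, namely AT3G28200, AT4G17690, AT5G40150 and AT5G47000. Over 1770 pairs of members the median identity of aligned coding sequences was 52.6%. Close copies were few. Of the 50-base words in merged exons, over 1% occurred again in the nuclear genome for 8 genes, and at most 7.5%, in PRXCB (AT3G49120). Exons of 3 genes overlapped other genes over more than 10% of their length, namely AT4G08780 (12.1%), AT4G25980 (33.5%) and AT5G40150 (18.7%), so their counts are uncertain.

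The 250 bases before the annotated start of each gene were read from TAIR10.1 and searched on both strands. The root hair element, a sequence found upstream of genes active in root hairs, matched in 3 of the 60 windows (5.0%), against 207 of 27443 protein-coding genes (0.754%). The consensus searched came from general knowledge and was not checked against a source, so these counts and the marked stretches rest on it. These 3 windows are shown because they hold that match, and the values of their genes are given below. They are followed by the windows of AT5G17820, the member with the largest difference between replicates, and PRXR1 (AT4G21960), the most abundant member, neither of which held a match. Sequences run 5' to 3' on the gene's strand, and capitals mark the root hair element and TATAAA, each on either strand.
RHS18 (chr5:7426060-7426309, + strand): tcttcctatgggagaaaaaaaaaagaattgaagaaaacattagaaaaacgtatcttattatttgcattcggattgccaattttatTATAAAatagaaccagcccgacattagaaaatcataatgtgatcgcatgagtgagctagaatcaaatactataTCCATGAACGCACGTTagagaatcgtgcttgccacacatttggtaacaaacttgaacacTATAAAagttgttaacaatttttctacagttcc
AT3G01190 (chr3:68666-68915, - strand): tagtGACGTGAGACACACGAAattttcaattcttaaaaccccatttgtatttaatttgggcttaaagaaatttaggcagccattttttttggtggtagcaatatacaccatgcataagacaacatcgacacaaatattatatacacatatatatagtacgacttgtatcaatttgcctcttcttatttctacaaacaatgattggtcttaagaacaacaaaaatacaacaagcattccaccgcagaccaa
AT2G35380 (chr2:14892245-14892494, + strand): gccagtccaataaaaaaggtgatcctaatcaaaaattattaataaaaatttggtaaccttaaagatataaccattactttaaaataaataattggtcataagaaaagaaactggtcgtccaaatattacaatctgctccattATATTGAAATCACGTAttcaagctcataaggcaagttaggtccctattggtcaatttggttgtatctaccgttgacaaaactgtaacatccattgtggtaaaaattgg
AT5G17820 (chr5:5890261-5890510, - strand): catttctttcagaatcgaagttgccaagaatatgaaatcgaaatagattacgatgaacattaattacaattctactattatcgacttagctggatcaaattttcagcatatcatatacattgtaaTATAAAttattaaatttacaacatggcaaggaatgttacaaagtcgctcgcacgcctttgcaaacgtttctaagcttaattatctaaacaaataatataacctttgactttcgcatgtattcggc
PRXR1 (chr4:11648645-11648894, - strand): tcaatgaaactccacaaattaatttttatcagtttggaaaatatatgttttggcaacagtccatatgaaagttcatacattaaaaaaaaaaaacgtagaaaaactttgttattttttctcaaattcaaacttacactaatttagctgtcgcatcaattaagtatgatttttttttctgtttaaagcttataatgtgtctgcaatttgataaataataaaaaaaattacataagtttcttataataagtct
The match began 92 bases before the start in RHS18 and 108 bases before it in AT2G35380, while in AT3G01190 it lay on the opposite strand, 246 bases before the start. The other motifs were near their share in all genes. TATAAA occurred in 31 of 60 windows (51.7%, against 47.3% of all genes), the G-box CACGTG in 3 (5.0%, against 6.49%) and the W-box core TTGAC in 25 (41.7%, against 44.9%). None of the 3 windows with the root hair element held CACGTG. Among members tied to root hairs below, AT4G26010, AT5G39580, AT5G64100, RHS19 and AT3G49960 held no match to that element. A match is a description of letters and not of a bound site.

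The libraries totalled 32967215, 31761722 and 27069921 counts in replicates 1, 2 and 3, and replicate 1 stood apart. Levels are in CPM, the counts scaled to a common library size by TMM (trimmed mean of M-values). Over the 17050 detected genes, log2(CPM + 0.5) of replicates 2 and 3 had a Pearson's r of 0.993, against 0.934 for replicate 1 with 2 and 0.920 for replicate 1 with 3. These correlations run across genes, which are not independent replicates. Replicates 2 and 3 were still distinct libraries, since their counts over the members gave a chi-square of 6.92 per degree of freedom. Of 5 markers of seed storage and pollen, DAF1 and VGD1 had 0 counts in each library. The seed storage genes CRU3 (108, 0.0327 and 1.34 CPM in replicates 1, 2 and 3) and CRA1 (105, 5.46 and 30.9 CPM) were highest in replicate 1. Results are therefore given with and without replicate 1.

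Peroxidase transcripts were a small part of the seedling RNA, and 1 gene supplied most of them. The 60 genes held 0.165% of counts in replicate 1 (95% exact binomial interval 0.1639 to 0.1667), 0.241% in replicate 2 (0.2396 to 0.243) and 0.257% in replicate 3 (0.2549 to 0.2587), a mean of 0.221% ± 0.049 (SD, n = 3) that became 0.249% without replicate 1. PRXR1 alone made up 75.2%, 50.2% and 52.5% of the family's counts in replicates 1, 2 and 3. Without PRXR1 the other 59 genes held 0.041%, 0.120% and 0.122% of all counts. With a detection limit of 1 CPM in each library, 38 members were detected (63.3%), and 45.7% of all genes in the table were. Without replicate 1 the count was 45. Per kb of merged exons, the scale used to compare levels between members, the median member stood at 4.55 CPM per kb and the median of all genes at 0.619. Among detected genes alone the medians were close, at 9.36 CPM per kb for members and 9.14 for all.

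**Figure D1:**
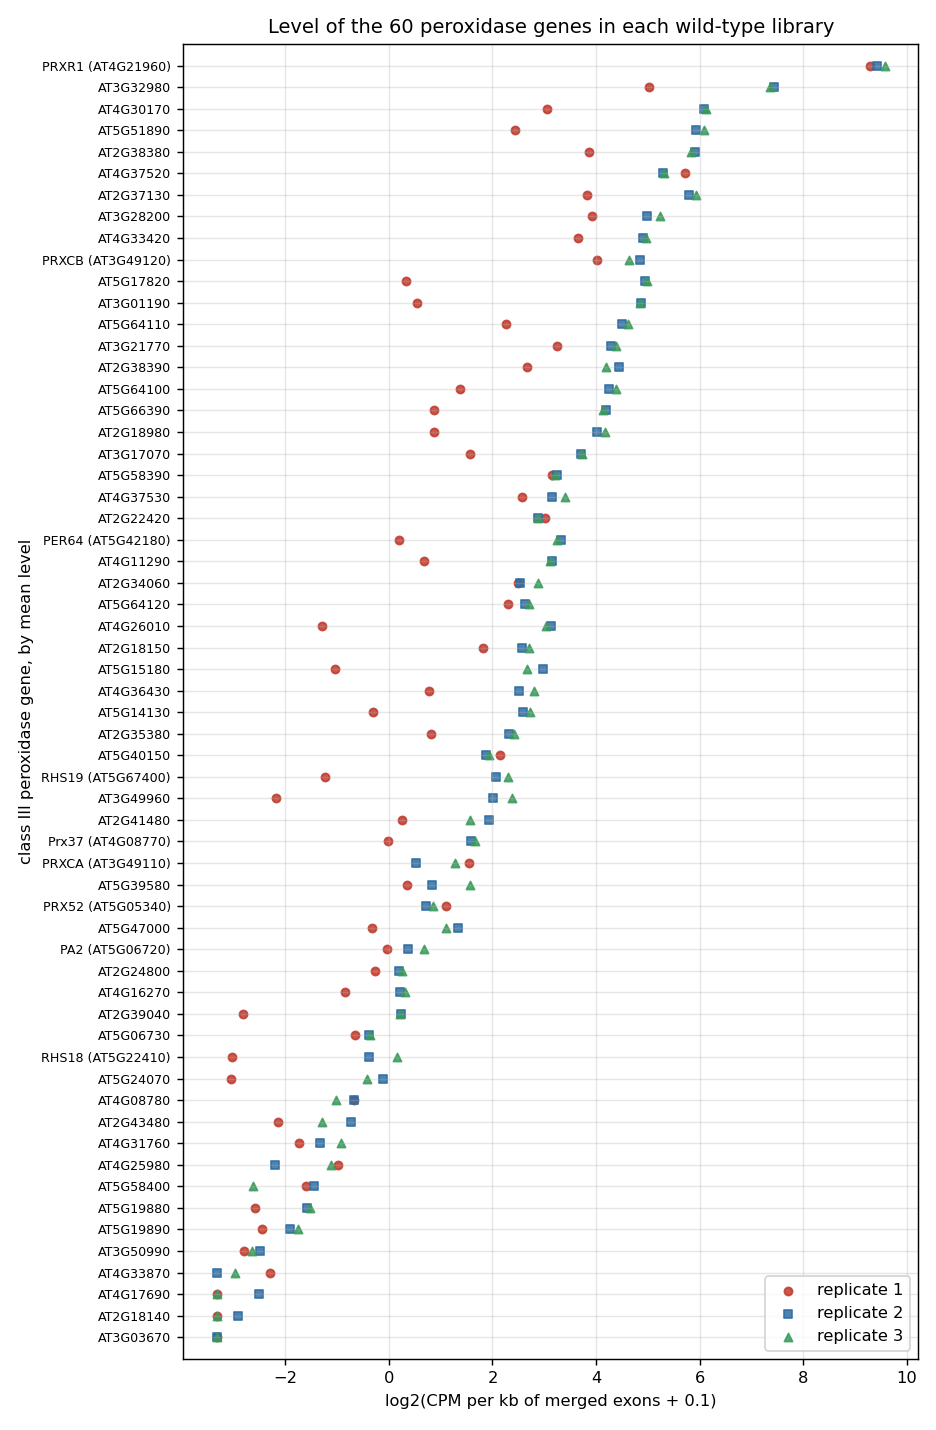
Level of each of the 60 peroxidase genes, as log2(CPM per kb of merged exons + 0.1) on the x axis, with genes down the y axis by mean level and 1 point for each replicate. PRXR1 stands alone at the top, replicates 2 and 3 nearly coincide for most genes above the lowest levels, and the points of replicate 1 lie to the left for most genes.

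The levels spanned the whole range from PRXR1 to a gene with no count. By mean CPM per kb, PRXR1 and AT3G32980 stood above the rest, 16 members followed between 48.5 and 11.9, 24 lay between 9.62 and 1.19, and 18 were at 0.957 or less. PRXR1 (TAIR10.1 chromosome 4, positions 11646109 to 11648644) had 1152, 1257 and 1402 CPM in replicates 1, 2 and 3, a mean of 1270 ± 125 CPM (SD, n = 3). Its level per kb, 695 ± 68.4, was 5.60 times that of the next member, and it was first in every library. AT3G32980 (chromosome 3, positions 13526071 to 13530098) came next with 50.1, 269 and 255 CPM, or 124 ± 79.4 CPM per kb. Its coding sequence was closest to that of PRXCB among the members (84.2% identity), yet none of its 50-base exon words recurred in the genome.

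The next 5 members were nearly level on the mean. AT4G30170 had 359, 2549 and 2247 counts in replicates 1, 2 and 3 (48.5 ± 34.9 CPM per kb, SD, n = 3). AT5G51890, annotated as a peroxidase that lignifies the water-conducting tracheary elements of roots, was at 6.64, 76.7 and 84.3 CPM (44.7 ± 34.2 CPM per kb). Among the members these genes ranked 3 and 4 in replicates 2 and 3, but 11 and 16 in replicate 1. AT2G38380 was at 24.2, 101 and 94.7 CPM (43.8 ± 25.4 CPM per kb), and AT2G37130 at 22.6, 89.3 and 98.5 CPM (43.4 ± 25.6 CPM per kb). AT4G37520 went the other way, at 72.6, 54.1 and 54.9 CPM (43.8 ± 7.59 CPM per kb), and ranked 2 among the members in replicate 1 but 7 in replicates 2 and 3. Over the whole family, 8 of 59 neighbours in the order of mean level kept that order in all 3 libraries. They included PRXR1 over AT3G32980, AT3G32980 over AT4G30170, and AT4G30170 over AT5G51890. Neighbours in such an order are close in level, and the same count was not made for other genes. As a description over the 60 genes, the log2 level per kb of replicates 2 and 3 had a Pearson's r of 0.993, against 0.856 for replicates 1 and 2 and 0.861 for 1 and 3.

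The remaining members of the highest 15 ranged from AT3G28200 at 28 ± 11.6 CPM per kb (23.1, 48.9 and 57.5 CPM in replicates 1, 2 and 3) to AT2G38390 at 15.3 ± 8.09 CPM per kb (8.66, 30.1 and 25.1 CPM). Between these lay AT4G33420 at 17.4, 42.0 and 44.0 CPM and AT3G21770 at 11.6, 24.0 and 25.6 CPM. PRXCB, a cell wall peroxidase tied to cell elongation and to the hydrogen peroxide made in defence, was at 24.6, 44.0 and 37.6 CPM. AT5G64110 was at 6.72, 32.3 and 35.0 CPM. In all, 12 of these 15 genes were at least 2-fold lower in replicate 1 than in the mean of replicates 2 and 3, and PRXR1, AT4G37520 and PRXCB were not.

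Most of the family was lower in replicate 1, and the size of the difference varied widely between members. Among the 43 members that averaged at least 1 CPM, 28 (65.1%) were at least 2-fold lower in replicate 1 than the mean of replicates 2 and 3 on the log2(CPM + 0.5) scale, and 0 were at least 2-fold higher. Over all 18189 genes with such a mean, 7.54% were 2-fold lower and 7.28% were 2-fold higher. The median log2 difference was -1.44 over the 43 members and 0.01 over all genes. Replicate 1 was the lowest library for 38 of the 43 (44.2% of all genes) and the highest for 5. At least 5-fold lower were 14 members, against 1.17% of all genes. Replicates 2 and 3 differed little. None of the 43 was 2-fold apart between them (0.352% of all genes), the largest log2 difference was 0.68, and the median was 0.07. In bulk seedlings, fewer cells of a type and less RNA per cell cannot be told apart.

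Whether a gene varied more than genes of like abundance was asked with the goodness-of-fit test of edgeR. At a Benjamini-Hochberg adjusted p of 0.05 over 19016 genes, 16 of 45 tested members passed, and 2.02% of all tested genes did. Replicate 1 was the farthest and lowest library in all 16 (1.06% of all genes). Since the family was taken up with this contrast known, nothing is read from these shares. Without replicate 1 the test called 0 members (2 at an unadjusted p of 0.05), with 60 of 19468 genes called in all. It called 7 members without replicate 2 (119 of 19179 genes in all) and 10 without replicate 3 (129 of 19261). The 15 members left untested had too few counts in a library, and 1 of them, AT3G49960, still had a mean over 1 CPM.

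**Figure D2:**
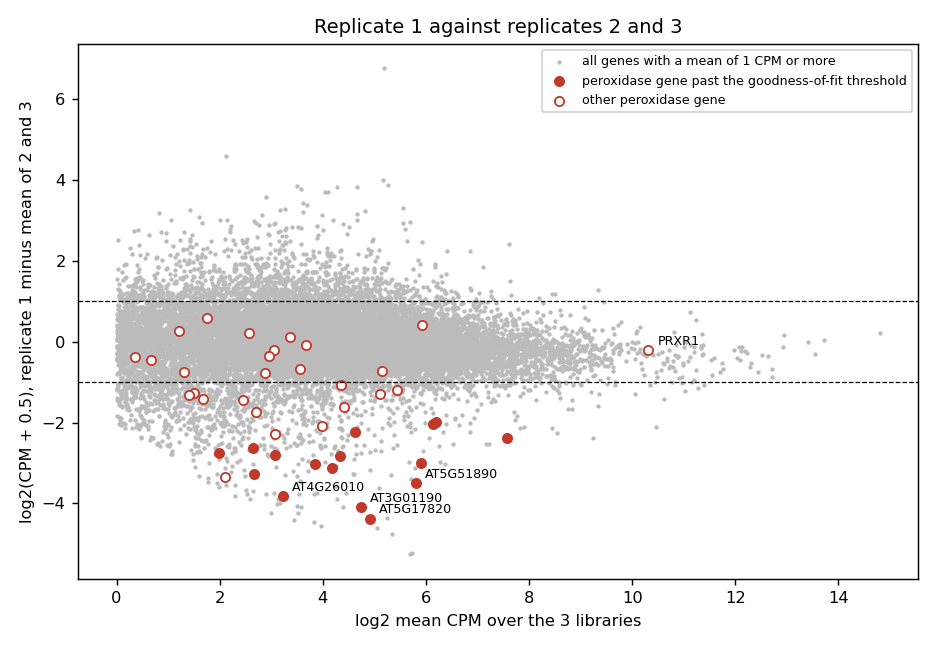
Replicate 1 minus the mean of replicates 2 and 3 in log2(CPM + 0.5) on the y axis against log2 mean CPM on the x axis, for 43 peroxidase genes (red) and all 18189 genes with a mean of 1 CPM or more (grey). Filled red points passed the goodness-of-fit threshold; dashed lines mark a 2-fold difference, and 28 red points lie at or under the lower line and 0 at or over the upper one.

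The largest difference was in AT5G17820 (chromosome 5, 5887871 to 5890260), with 59, 1341 and 1169 counts, or 1.66, 43.8 and 44.9 CPM, in replicates 1, 2 and 3. It was 20.8-fold lower in replicate 1 on the scale of CPM + 0.5, and it ranked 32 among the members there but 9 in both other libraries. AT3G01190, with the root hair element on the opposite strand, followed at 1.83, 39.4 and 39.0 CPM (17.1-fold). AT4G26010 was at 0.506, 14.3 and 13.3 CPM (14.2-fold), AT5G51890 was 11.3-fold lower, and AT3G49960, annotated as enriched in root hair cells, was at 0.169, 5.49 and 7.18 CPM (log2 difference -3.34). In each of these 5 genes the value of replicate 1 lay far under both others. Replicates 2 and 3 nearly coincided except in AT3G49960, where they had a log2 difference of 0.36. AT5G15180 was at 0.506, 10.2 and 8.29 CPM (9.64-fold), and AT2G18980 at 2.08, 19.2 and 21.6 CPM (8.10-fold). AT4G30170, the closest member to AT2G18980 at 78.7% coding identity, was 8.05-fold lower. AT5G66390 (8.73-fold) and AT5G64100 (7.12-fold) complete the 10 largest differences. Others past the goodness-of-fit threshold were AT3G32980 (5.18-fold), AT5G64110 (4.73-fold), AT2G37130 (4.08-fold), AT2G38380 (3.97-fold) and AT5G14130 at 1.01, 8.53 and 9.33 CPM (6.23-fold), with PER64 and RHS19 given below. Short of that threshold, AT3G17070 (4.22-fold), AT4G36430 (3.33-fold), AT5G47000 (2.49-fold) and AT2G35380, one of the genes with the root hair element, at 2.31, 6.86 and 7.33 CPM (2.71-fold), were also lower.

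A smaller set of members was as high in replicate 1 as elsewhere. The 5 genes highest there were AT4G37520, AT2G22420, AT5G40150, PRX52 and PRXCA, with log2 differences from 0.12 to 0.59. AT5G58390 was among the steadiest, at 12.2, 13.2 and 12.8 CPM (log2 difference -0.09). AT2G34060 (7.45, 7.71 and 9.83 CPM) and PRXR1 (log2 difference -0.20) also differed little. AT5G40150 was at 6.64, 5.49 and 5.76 CPM, with the overlap named above. Within the 43 members the log2 difference had a Pearson's r of 0.10 with exon length, 0.11 with the GC content of exons and -0.18 with log2 mean CPM, given as a description over genes that share 3 libraries.

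Members with known roles were grouped into 7 lists. Those tied to lignin and xylem were all 7 detected, and 4 were at least 2-fold lower in replicate 1 (median log2 difference -1.28), while 3 passed the goodness-of-fit threshold. For these lists too, the shares over all genes were 7.54% at least 2-fold lower and 2.02% past the threshold, and the share over the 43 members was 65.1% at least 2-fold lower. PER64 (AT5G42180), which polymerises lignin in the Casparian strip, stood at 1.29, 12.2 and 11.6 CPM across replicates 1, 2 and 3 (6.92-fold lower in replicate 1). AT5G66390, also named PRX72 and annotated to lignin synthesis, was at 2.50, 26.3 and 25.1 CPM, and AT2G41480, also named PRX25 and bound to the wall, at 1.21, 4.15 and 3.19 CPM. By contrast, AT2G22420 had 388, 307 and 259 counts (10.3 ± 0.533 CPM, SD, n = 3), PRX52 (AT5G05340), of lignin in stem fibres, at 2.67, 2.03 and 2.23 CPM, and AT5G64120, also named PRX71 and annotated as induced by low osmolarity, at 6.47, 8.14 and 8.68 CPM. The lignin list thus held both steady members and members with large differences between replicate 1 and the other libraries. The Casparian strip list held PER64, AT5G66390 and AT4G11290 (2.00, 11.7 and 11.4 CPM). All 3 were at least 2-fold lower in replicate 1, with 2 past the goodness-of-fit threshold, and their summed level was 5.79, 50.2 and 48.2 CPM. Those 2, PER64 and AT5G66390, were also counted in the lignin list. As for the family, nothing is read from the counts past that threshold in any list.

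Of 5 root hair members, 4 had a mean of 1 CPM or more and 3 of these were at least 2-fold lower in replicate 1, namely AT4G26010, AT5G64100 (3.57, 27.2 and 29.7 CPM) and RHS19 (AT5G67400; 0.422, 5.33 and 6.22 CPM). These 3 also passed the goodness-of-fit threshold. RHS18 had 1, 26 and 34 counts, a mean of 0.728 ± 0.647 CPM (SD, n = 3) that became 0.448 CPM without replicate 3, and AT5G39580 was at 1.52, 2.19 and 3.72 CPM. All 5 were lowest in replicate 1, and their summed level was 6.04, 49.9 and 54.3 CPM. AT5G64100 and AT5G39580 were detected, while AT4G26010 and RHS19 were under 1 CPM in replicate 1 and RHS18 in replicates 1 and 2. The 3 members known as targets of the repressor UPB1 at the root growth zone were AT5G17820, AT4G11290 and AT4G16270. The last of these, also known from the tapetum of anthers, had 17, 34 and 31 counts (0.926 ± 0.390 CPM, SD, n = 3), with 9.8% of its exons overlapping another gene.

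PRXCA (AT3G49110) and PRXCB, a pair needed for the apoplastic oxidative burst, together with AT5G64120 summed to 35.5, 54.2 and 49.9 CPM in replicates 1, 2 and 3, and 0 of the 3 were 2-fold lower in replicate 1 or past the goodness-of-fit threshold. PRXCA was at 4.44, 2.09 and 3.65 CPM, highest in replicate 1, where PRXCB was lowest. In the elongation list, which also holds AT5G64120, 1 of 3 genes was at least 2-fold lower in replicate 1 and 0 passed the goodness-of-fit threshold. Prx37 (AT4G08770), a vascular peroxidase whose excess dwarfs the plant, was at 1.24, 4.05 and 4.26 CPM, and PA2 (AT5G06720), a peroxidase of the wound response, at 1.18, 1.6 and 2.00 CPM. AT3G50990, also named PER36 and needed for mucilage release from the seed coat, had 2, 3 and 2 counts, at or under the 3 counts that a reading of 0 allows.

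**Figure D3:**
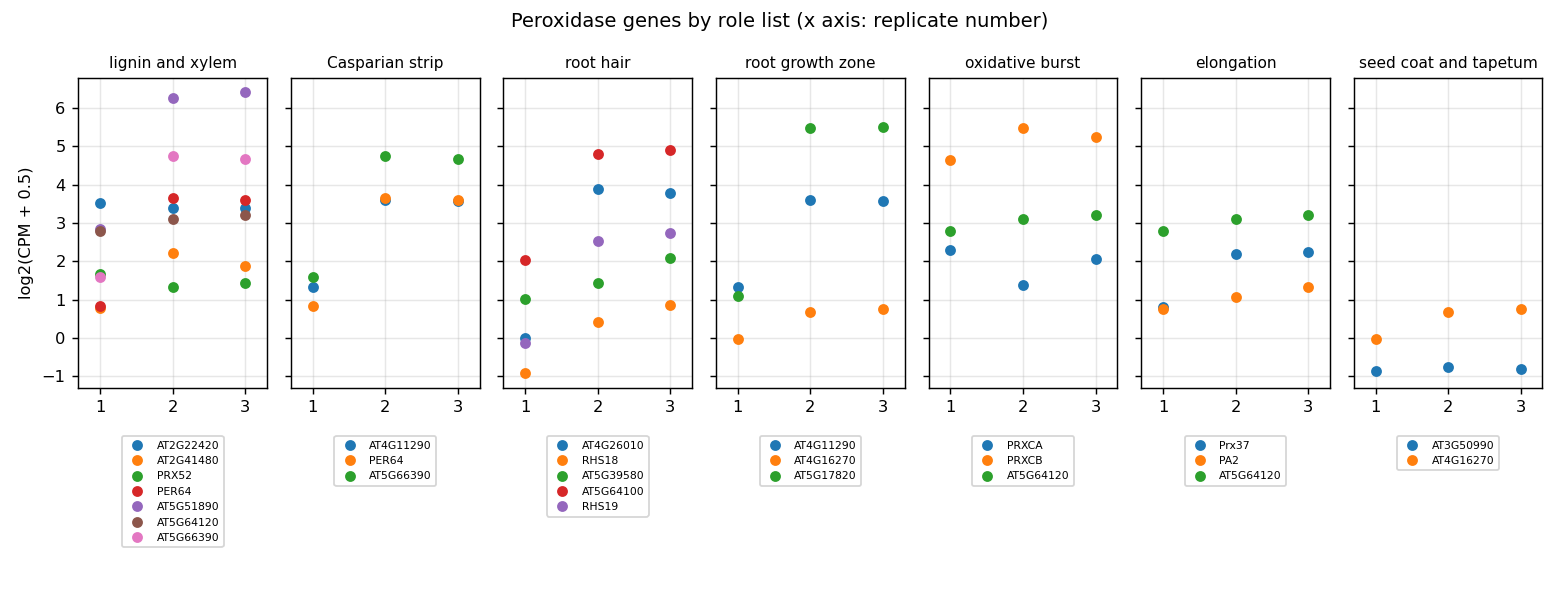
Peroxidase genes of the 7 role lists, as log2(CPM + 0.5) on the y axis in replicates 1, 2 and 3 on the x axis, with 1 colour for each gene of a panel. All members of the Casparian strip and root hair panels are lowest in replicate 1, while PRXCA, PRX52 and AT2G22420 are highest there.

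Neighbouring genes, which often arise by tandem duplication, were compared in 10 pairs of consecutive locus codes. In 8 pairs the same gene was higher in 3 of 3 libraries. No such count was made for other pairs of genes, so it is not read as a trait of neighbours. The smallest p that exact sign flips of 3 libraries allow, two-sided, is 0.25, which leaves every pair above the threshold (lowest Benjamini-Hochberg adjusted exact p = 0.312, n = 3). AT2G18140 had 0, 1 and 0 counts beside 172, 252 and 234 for AT2G18150, although their coding sequences were 91.7% identical. PRXCA was lower than PRXCB per kb in each library, by log2 ratios of -2.47, -4.33 and -3.35 (mean -3.39 ± 0.93, SD, n = 3), at 90.4% identity. AT4G37520 exceeded AT4G37530 (8.21, 12.3 and 14.6 CPM) by 3.14, 2.14 and 1.92 (2.40 ± 0.65), at 92.4% identity. Between copies as alike as in these 3 pairs the split of reads is uncertain. In the last 2 pairs the members leaned in opposite directions in replicate 1, since PRXCA and AT4G37520 were highest there and their neighbours lowest.

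AT2G38380 exceeded AT2G38390 by 1.20, 1.47 and 1.64 (1.44 ± 0.22), so this pair, with 897 bases between the genes, kept nearly the same ratio while both were lower in replicate 1. Their coding sequences were 90.6% identical, so here too the split of reads is uncertain. Prx37 exceeded AT4G08780 (0.619, 0.621 and 0.461 CPM) by 0.65, 2.26 and 2.68, a mean of 1.86, or 1.07 with a pseudocount of 1. Of the 10 pairs these were the most alike, at 93.8% identity, so their split of reads is uncertain as well. PA2 exceeded AT5G06730 by 0.63, 0.76 and 1.04, with AT5G06730 at 0.759, 0.948 and 0.960 CPM. The mean log2 ratio of this pair was 0.81, or 0.42 with a pseudocount of 1. AT5G58390 exceeded AT5G58400, which had 10, 10 and 2 counts, by a mean of 5.09 ± 0.64, or 3.09 with a pseudocount of 1. AT5G19880 (3, 9 and 8 counts) and AT5G19890 (4, 7 and 7 counts) were both near the counting limit, and their ratio changed sign between libraries. On chromosome 5, AT5G64100, AT5G64110 and AT5G64120 lie in a row. AT5G64110 exceeded AT5G64120 by 1.88 and 1.90 in replicates 2 and 3, but the log2 ratio was -0.04 in replicate 1, since the first was 4.73-fold lower there and the second 1.28-fold. AT5G64100 was under AT5G64110 in each library, by -0.89, -0.25 and -0.24.

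**Figure D4:**
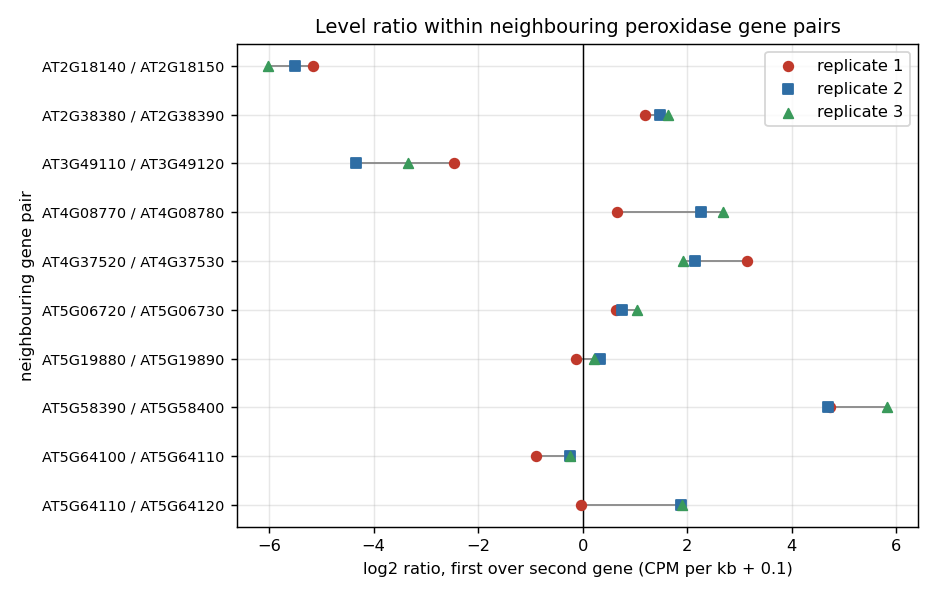
Log2 ratio of the first over the second gene of 10 neighbouring pairs, from CPM per kb + 0.1, on the x axis, with 1 point for each replicate and a line over their range. In 8 pairs all 3 points lie on 1 side of 0, and for AT5G64110 over AT5G64120 the point of replicate 1 lies near 0 while the others lie near 1.9.

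Of the 22 members that were not detected, 7 were at 1 CPM or more in replicates 2 and 3 and missed the limit only in replicate 1. These were AT4G26010, AT5G15180, RHS19, AT3G49960, AT2G24800, AT4G16270 and AT2G39040 (2, 44 and 37 counts). The share of all genes that missed the limit in this way was not computed. Another 13 members stayed under 1 CPM in each library. RHS18 (1, 26 and 34 counts) and AT5G24070 (1, 33 and 22 counts) each passed 1 CPM in a single library. The values nearest the limit were AT5G14130, with a lowest value of 1.01 CPM, on the detected side and AT2G24800, with a lowest value of 0.984 CPM, on the other. AT3G03670 had 0 counts in each library, which allows at most 0.0843, 0.0981 and 0.115 CPM in replicates 1, 2 and 3 by the limit of 3 counts, for counting error only. AT2G18140, AT4G17690 (0, 3 and 0 counts) and AT3G50990 also had 3 counts or fewer everywhere. AT4G33870 (5, 0 and 1 counts), AT4G25980 (20, 5 and 13), AT4G31760 (7, 9 and 11) and AT2G43480 (5, 17 and 9) were present at low counts.

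Genes that work with these peroxidases were also lower in replicate 1 for the most part. For these lists and the marker lists below, the shares over all genes were 7.54% at least 2-fold lower and 2.02% past the goodness-of-fit threshold. Of 10 RBOH genes, the NADPH oxidases whose superoxide gives rise to hydrogen peroxide in the wall, 6 had a mean of 1 CPM or more and 3 of these were at least 2-fold lower there, and 0 of 8 tested passed the goodness-of-fit threshold. RBOHD, the main oxidase of defence, stood at 34.4, 44.9 and 48.6 CPM across replicates 1, 2 and 3, and RHD2, the root hair oxidase, at 0.984, 5.95 and 5.11 CPM. RBOH F was not lower in replicate 1, at 12.4, 13.0 and 10.7 CPM. All 5 Casparian strip scaffold genes with such a mean, of 7 listed, were at least 2-fold lower, led by CASP1 with 67, 857 and 719 counts, and 2 of 5 tested passed that threshold. The 3 lignin laccases, which couple lignin monomers with oxygen, were all at least 2-fold lower too, and 1 passed, with LAC11 at 0.534, 16.5 and 16.9 CPM. UPB1, the repressor of root peroxidase genes, was at 1.07, 2.71 and 3.72 CPM. In the root hair list 6 of 7 genes had such a mean and all 6 were at least 2-fold lower, with EXPA7, an expansin of root hairs, at 0.169, 8.01 and 6.56 CPM and a median log2 difference of -2.94.

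Some root markers were at least 2-fold lower in replicate 1 and no shoot marker was. Of 10 root markers, 6 were detected and 1 (NRT2:1) had 0 counts in each library. Of the 6 with a mean of 1 CPM or more, 3 were at least 2-fold lower in replicate 1, and 2 of 9 tested passed the goodness-of-fit threshold. Their summed level was 807, 2115 and 2183 CPM in replicates 1, 2 and 3, most of it from PYK10, which did not pass. PHT1;1, a phosphate transporter of the root surface, was at 5.43, 54.4 and 60.5 CPM, and PYK10, a root glucosidase, at 737, 1950 and 2014 CPM. The root regulator SCR was at 33.7, 38.1 and 36.9 CPM and SHR at 17.4, 21.9 and 27.4 CPM, so not all listed markers were as low. MYB66, PLT1 and PLT2 averaged under 1 CPM, with log2 differences of -0.68, -0.49 and -0.59. Expression of these markers outside the root was not examined. All 8 shoot markers were detected, 0 were 2-fold apart, and they summed to 66470, 67310 and 66008 CPM. Their log2 differences ran from -0.35 to 0.23. LHCA1 was lowest in replicate 1 (5398, 6880 and 6854 CPM), while CAB1, a large part of the sum, was highest there (31762, 26957 and 27466 CPM). The part of the root share of the tissue, of seed RNA or of the library itself in the peroxidase differences was not tested.

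**Figure D5:**
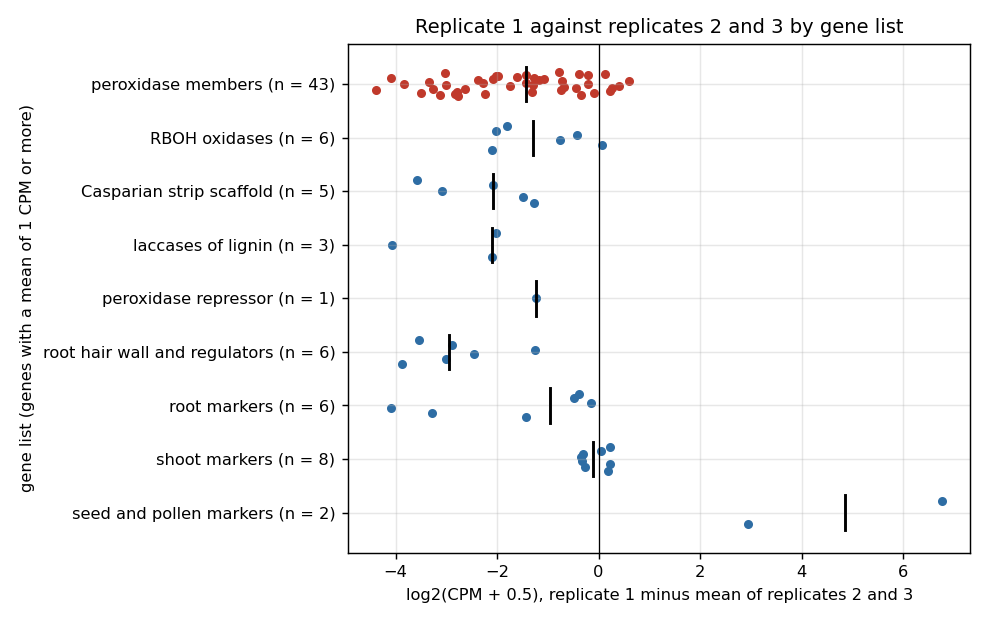
Replicate 1 minus the mean of replicates 2 and 3 in log2(CPM + 0.5) on the x axis, with 1 point for each gene with a mean of 1 CPM or more and a black bar at the median, for the 43 peroxidase genes and for lists of related genes and organ markers. The peroxidase median is -1.44 and that of the shoot markers -0.10, and the root hair list has the lowest median at -2.94.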

How the data were processed

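Polyadenylated RNA was measured in 3 wild-type libraries. The authors' deposited table holds raw counts per gene, with 0 columns of other samples. As tools, the submitters' processing notes list DESeq2, featureCounts 1.6.1 and HISAT2 2.1.0 without saying what each did, and as build TAIR10. The annotation, the strand setting, filters and the treatment of multi-mapping reads were not stated. Because strand use is not stated, reads of antisense partners cannot be told apart.

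For CPM, library sizes were scaled by TMM factors (1.079, 0.9631 and 0.9624 in replicates 1, 2 and 3; edgeR 4.0.16 under R 4.3.3). Libraries were compared as log2(CPM + 0.5). Levels of genes were CPM per kb of merged RefSeq exons (TAIR10.1; 37051 identifiers matched, 285 did not), with a pseudocount of 0.1 in ratios. The goodness-of-fit test used the trended dispersion with an intercept only, after filterByExpr (about 10 counts in each library). It was tried on counts simulated at the common dispersion, with some of the more abundant genes raised in 1 library. That trial did not cover genes lowered in 1 library or genes of low abundance. Exact sign-flip tests were two-sided. DESeq2 1.42.0 gave alternative size factors and dispersion outliers. Coding sequences were aligned with Biopython 1.88.

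The members, role lists, pathway and marker lists and pairs were chosen with earlier results of these data known. Values per library are given for the 15 highest members by CPM per kb, the 10 largest differences of replicate 1, neighbouring pairs, role lists and members nearest the detection limit, and for members past the goodness-of-fit threshold; other members are given by counts. Intervals and limits cover counting error only.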

Additional observations from a re-analysis of the deposited data

How the results depend on the processing

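Changing the library size, pseudocount or low-value filter left the counts of members detected, 2-fold lower and 2-fold higher within 1.5 times of the values reported (28 to 42 detected, 27 to 31 lower, 0 higher). Scaling by total counts moved the median log2 difference of all genes to 0.17, against 0.01 with TMM, and that of the members to -1.30, with 27 members 2-fold lower. Leaving out 1 replicate gave 39 to 45 detected members, 0.203% to 0.249% of counts, a median level of 3.85 to 5.94 CPM per kb, and 28 or 29 members lower in replicate 1. The goodness-of-fit test depended on replicate 1: leaving out 1 replicate gave 0 to 10 members against 16, with 0 without replicate 1. Over all genes, at an adjusted p under 0.05, the calls fell too, from 384 to 60, 119 and 129 without replicates 1, 2 and 3. DESeq2 marked 2 members as dispersion outliers, among 23 genes in all. A chi-square test against counting error alone, added after the data were seen, called 38 of 45 members. It also called 14928 of all 19016 genes tested. Of the single-gene and single-pair values, 6 moved by more than the spread between replicates and 344 did not, and 0 reversed. With 3 libraries, leaving out 1 can hardly move a mean past that spread, so those settings could seldom count as moved. The mean of AT5G17820 went from 30.1 to 42.7 CPM without replicate 1 and was among the 344. No paired analysis was possible because all libraries belong to 1 group. Depth limits the members under 3 counts in a library, whose ratios depend on the pseudocount. Ratios of low members with more counts depended on it too, as for PA2 and Prx37 with their neighbours.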
